A study of Mus musculus with 57 samples.

Results

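The 1868 sites described here are distal regions of gastrocnemius chromatin that carried acetylation of histone H3 at lysine 27 (H3K27ac) in every gastrocnemius library and in no cortex library. They were chosen by a rule on H3K27ac peaks alone: of 45630 merged gastrocnemius regions on chromosomes 1 to 19, 20120 held a peak in all 10 gastrocnemius libraries, 2142 of these were overlapped by no peak of the 9 cortex libraries, and 1868 had both edges more than 5 kb from every transcription start site (TSS) of the curated RefSeq transcripts on mm10. Because H3K27ac selected the sites, its levels are given as a description, and only H3K4me3 and H3K27me3, which the rule did not use, were tested. Neither is free of the rule, since H3K27me3 falls on the same lysine and H3K4me3 also marks active genes. Choosing sites by H3K27ac favours a direction for both, and the tests cannot separate their differences from that choice. The libraries come from PSAPP mice, a transgenic model of Alzheimer's disease that carries mutant human presenilin 1 and a chimeric mouse/human amyloid precursor protein, killed at 13 months of age after single housing on a modified AIN-93 diet from 6 months. All mice were PSAPP, so there is no group without the transgenes. Cortex and gastrocnemius were taken as whole frozen tissue from 10 mice, 9 of which gave both, and the 3 marks were profiled in 9 cortex and 10 gastrocnemius libraries each. The study used both sexes, but the labels name the sex of no library, and the sexes were not compared.

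H3K27ac is placed by acetyltransferases at active promoters and enhancers, and distal sites with H3K27ac but little H3K4me3 are commonly read as active enhancers. H3K4me3 marks the start sites of active or poised genes, and H3K27me3 is laid down by the Polycomb repressive complex 2 over genes and enhancers that are kept silent. A lysine cannot be acetylated and methylated at once, so H3K27ac and H3K27me3 exclude each other on the same histone tail. In skeletal muscle, enhancers are bound by the myogenic factors (MyoD and its relatives, which read E-boxes), MEF2, TEAD and estrogen-related receptors. Whole gastrocnemius also holds endothelial cells, fibroblasts, smooth muscle, fat, nerve and immune cells, and fewer cells of a type cannot be told apart from less of a mark per cell.

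The 300 bases at the core of 8 sites are shown first, where the core is the stretch covered by peaks of the most gastrocnemius libraries. They are read from the plus strand of mm10, and capitals mark matches on either strand to the MyoD-type E-box (CAGCTG), the MEF2 site, the TEAD site (CATTCC) or the ERR site (TCAAGGTCA). The 3 sites with the highest H3K27ac lie nearest Pkdcc, Rreb1 and Zfand5, and together their cores hold only 2 TEAD matches:
Pkdcc site, chr17:83156651-83156950: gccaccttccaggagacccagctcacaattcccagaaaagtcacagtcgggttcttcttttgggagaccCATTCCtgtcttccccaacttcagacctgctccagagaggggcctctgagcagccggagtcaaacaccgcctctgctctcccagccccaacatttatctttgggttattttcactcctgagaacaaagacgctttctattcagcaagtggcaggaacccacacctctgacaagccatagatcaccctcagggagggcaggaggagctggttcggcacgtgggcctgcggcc
Rreb1 site, chr13:37676851-37677150: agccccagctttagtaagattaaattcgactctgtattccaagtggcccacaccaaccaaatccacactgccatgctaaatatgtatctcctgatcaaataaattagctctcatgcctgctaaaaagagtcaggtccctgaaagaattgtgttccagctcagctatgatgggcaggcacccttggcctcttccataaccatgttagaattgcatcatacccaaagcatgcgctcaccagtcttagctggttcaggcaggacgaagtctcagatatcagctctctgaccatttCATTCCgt
Zfand5 site, chr19:21330651-21330950: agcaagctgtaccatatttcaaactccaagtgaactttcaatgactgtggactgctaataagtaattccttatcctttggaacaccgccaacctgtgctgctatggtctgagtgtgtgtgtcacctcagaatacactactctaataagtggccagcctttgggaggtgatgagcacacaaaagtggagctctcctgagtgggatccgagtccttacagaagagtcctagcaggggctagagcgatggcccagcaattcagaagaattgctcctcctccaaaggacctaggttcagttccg
The sites nearest Kl, Sox6 and Dkk1, all among the 100 with the highest H3K27ac, are shown because their cores hold both the E-box and the TEAD letters:
Kl site, chr5:150914651-150914950: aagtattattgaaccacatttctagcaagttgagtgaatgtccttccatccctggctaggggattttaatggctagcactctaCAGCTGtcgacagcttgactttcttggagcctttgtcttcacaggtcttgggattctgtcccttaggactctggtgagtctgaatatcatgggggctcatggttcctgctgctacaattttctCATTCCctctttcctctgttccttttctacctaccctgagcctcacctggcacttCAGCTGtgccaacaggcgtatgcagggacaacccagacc
Sox6 site, chr7:115508951-115509250: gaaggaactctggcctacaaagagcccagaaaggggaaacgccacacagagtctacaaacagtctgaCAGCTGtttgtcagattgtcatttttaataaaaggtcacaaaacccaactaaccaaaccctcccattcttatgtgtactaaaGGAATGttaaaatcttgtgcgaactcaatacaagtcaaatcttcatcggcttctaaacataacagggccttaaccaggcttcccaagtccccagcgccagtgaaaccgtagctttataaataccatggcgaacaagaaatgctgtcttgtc
Dkk1 site, chr19:30624751-30625050: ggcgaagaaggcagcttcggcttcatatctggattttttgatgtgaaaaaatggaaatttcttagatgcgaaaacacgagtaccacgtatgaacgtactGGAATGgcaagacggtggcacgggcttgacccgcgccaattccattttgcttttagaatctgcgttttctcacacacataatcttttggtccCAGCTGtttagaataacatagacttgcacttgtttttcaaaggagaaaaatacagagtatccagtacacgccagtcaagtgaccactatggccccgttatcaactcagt
The last cores, chosen after the values were seen, are those of the 2 highest sites with a match to the loose MEF2 letters. They lie nearest Dct and Adamts5, and both matches have C or G among the middle letters:
Dct site, chr14:118070251-118070550: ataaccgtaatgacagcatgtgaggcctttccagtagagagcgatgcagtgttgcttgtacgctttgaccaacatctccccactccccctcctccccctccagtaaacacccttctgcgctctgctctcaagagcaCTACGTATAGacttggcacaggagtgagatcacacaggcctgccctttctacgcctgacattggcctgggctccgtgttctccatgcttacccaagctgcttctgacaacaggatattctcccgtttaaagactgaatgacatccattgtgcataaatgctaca
Adamts5 site, chr16:86013351-86013650: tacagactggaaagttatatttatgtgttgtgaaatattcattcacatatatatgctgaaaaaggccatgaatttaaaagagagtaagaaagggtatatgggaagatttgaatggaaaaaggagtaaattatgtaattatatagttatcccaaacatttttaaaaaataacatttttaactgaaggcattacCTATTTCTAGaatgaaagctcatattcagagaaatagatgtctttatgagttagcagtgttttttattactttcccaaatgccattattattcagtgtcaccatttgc

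Depth, in reads within called peaks, was 15.7 to 27.3 M in the H3K27ac libraries of gastrocnemius and 3.94 to 21.2 M in those of cortex. It was 9.16 to 15.0 M and 9.499 to 18.99 M for H3K4me3, and 2.99 to 18.2 M and 4.52 to 7.32 M for H3K27me3, in the same order. The sites were of moderate width and mostly lay between genes. Their width had a median of 7.2 kb (range 1.6 to 122.4 kb) and summed to 16.7 Mb, and their edges lay a median of 42.4 kb from the nearest TSS (quartiles 20.7 and 95.4 kb). At the middle of the core, 60.4% were intergenic, 38.1% intronic and 1.499% exonic in RefSeq. Distal sites acetylated in every library of both tissues (shared sites, n = 4263) had the reverse make-up, with 35.2% intergenic and 59.8% intronic, and were wider (median 12.6 kb). Distal sites acetylated in all 9 cortex and no gastrocnemius libraries (cortex-only sites, n = 3054) were also mostly intronic (61.8%), at a median width of 7.4 kb. Every autosome held some, from 46 on chromosome 19 to 181 on chromosome 1. The core middle was covered by peaks of all 10 gastrocnemius libraries at 1789 of the 1868 sites.

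H3K27ac at the sites took a small and even part of each library. Levels are RPM per kb: reads of the called peaks, scaled to the library's reads in autosomal peaks, per kb of the site. The sites held 2.24% ± 0.129 (SD, n = 10) of a gastrocnemius library's peak reads, between 2.02 and 2.44%, and the median site stood at 1.20 to 1.35 RPM per kb over the libraries. Depth behind a value was a median of 129.5 to 244.5 reads per site and library, and the lowest was 26. The mean level per site had a median of 1.29 RPM per kb (quartiles 1.04 and 1.57, range 0.462 to 3.77), and the coefficient of variation (CV) over the 10 libraries had a median of 27.3%. Just outside the rule, 611 distal sites without a cortex peak were called in 9 of 10 gastrocnemius libraries, at a median of 0.924 RPM per kb. A further 444 were called in all 10 and in 1 cortex library, at 1.26 RPM per kb. The 40 sites 5 to 6 kb from a TSS had a median of 1.08 RPM per kb, and the 32 regions left out at 4 to 5 kb had 1.34. Cortex library 9 held 3.94 M reads in H3K27ac peaks against 14.4 to 21.2 M in the others, and leaving it out of the rule would give 1871 sites.

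The site with the highest H3K27ac was a 4.6 kb intergenic region on chromosome 17 (83154601 to 83159200), 58.5 kb from the start of Pkdcc, a secreted kinase-like protein of skeletal growth. Its level ran from 3.04 over a median of 3.85 to 4.69 RPM per kb. Next came a 13.0 kb site on chromosome 13 (37672001 to 37685000) whose nearest gene, 149 kb away, is Rreb1, a zinc finger transcription factor. There the libraries ran from 2.52 over 3.44 to 4.98 RPM per kb. The ranges of these 2 sites overlap along most of their length. The Zfand5 site, on chromosome 19 (21327001 to 21334400), lies 58.5 kb from the gene, which encodes a ubiquitin-binding protein with a role in muscle wasting, and ran from 2.27 over 3.66 to 4.81 RPM per kb. The only one of the 10 highest sites that lay inside a gene was in intron 5 of Myom1, which encodes the M-band protein myomesin (chromosome 17, 71029201 to 71048000, 2.14 over 2.85 to 3.94 RPM per kb). The remaining 6 had means between 2.87 and 3.22 RPM per kb, with nearest genes Eepd1, Nr2f2 (an orphan nuclear receptor), Smim20 (a small mitochondrial protein), Unc93a2, Kcnma1 (a calcium-activated potassium channel) and Adamts5 (an aggrecan-cleaving protease). Their start sites lay between 38.6 kb (Smim20) and 760 kb (Kcnma1) away, and the nearest gene is a label for a site here, not its established target.

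**Figure D1:**
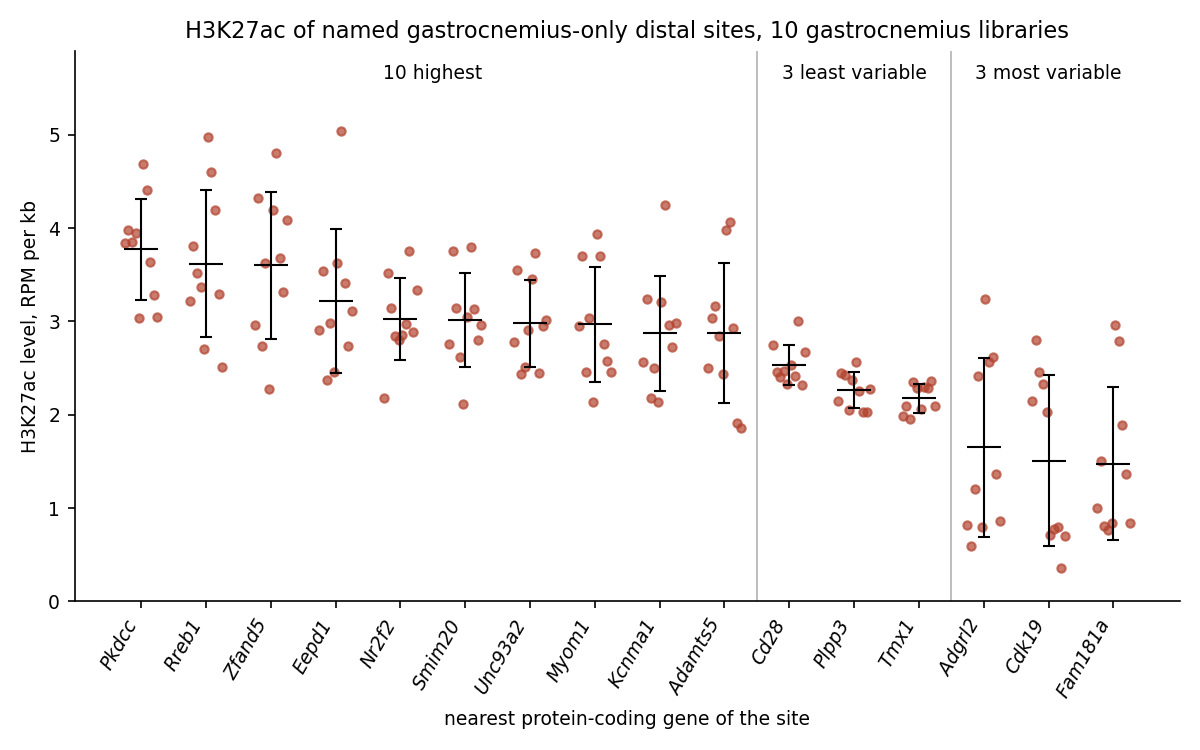
H3K27ac level in RPM per kb (y axis) of the 10 highest sites and of the 3 least and 3 most variable sites of at least median level, each labelled by its nearest gene (x axis); points are the 10 gastrocnemius libraries, bars the mean ± SD. The 10 highest sites have overlapping ranges, while the site nearest Cdk19 falls into 5 libraries above 2 RPM per kb and 5 below 0.8.

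How far a site varied among the libraries differed widely. Among sites of at least median level, the steadiest were nearest Tmx1 (a thioredoxin-related protein of the endoplasmic reticulum), Cd28 (a T cell co-receptor) and Plpp3 (a phospholipid phosphatase), with CVs of 7.05%, 8.398% and 8.50%. At the Tmx1 site the libraries ran from 1.96 over 2.19 to 2.36 RPM per kb. The most variable were nearest Cdk19, a kinase of the Mediator complex, Adgrl2, a latrophilin, and Fam181a, with CVs of 60.9%, 58.2% and 55.8%. At the Cdk19 site (chromosome 10, 40325401 to 40336200), libraries 1 to 5 held 2.15, 2.80, 2.46, 2.33 and 2.03 RPM per kb, and libraries 6 to 10 held 0.709, 0.777, 0.794, 0.353 and 0.698. The libraries thus stood at 2 separate levels, 5 at each. The labels do not tell these apart, but the gastrocnemius H3K27me3 libraries of the same mice do. They held 9 to 45 peaks outside the autosomes for mice 1 to 5 and 1438 to 2536 for mice 6 to 10. Beside the autosomes, only X was kept in the processing. The paper reports a stronger H3K27me3 signal around start sites on X in females than in males. No label gives the sex of these libraries, and the part of sex in the H3K27ac values was not tested. At the Fam181a site (chromosome 12, 103280401 to 103289200) libraries 6 and 7 stood highest, at 2.96 and 2.79 RPM per kb, and the lowest held 0.769. At the Adgrl2 site (chromosome 3, 147946601 to 147950800) the libraries ran from 0.596 over 1.28 to 3.24 RPM per kb, with 6 libraries at 1.36 or less and 4 at 2.42 or more.

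Many genes had several sites around them. The 1868 sites had 1219 nearest protein-coding genes, of which 862 had 1 site and 153 had 3 or more. Plpp3 led with 12 intergenic sites between 23.2 and 393 kb from its start on chromosome 4 (level 0.650 to 2.26 RPM per kb), followed by Klf6, a zinc finger transcription factor, with 10 sites up to 602 kb away and Palld, an actin-bundling protein of Z-discs and stress fibres, with 9, of which 8 were intronic. Zfp462 (a zinc finger protein), Trib2 (a pseudokinase), Hibadh (an enzyme of valine breakdown) and Adamts9 (a matrix protease) had 8 each. With sites joined over the stitching distance commonly used for super-enhancers, 423 sites fell into clusters of 2 to 7 and 1445 stood alone. The largest cluster held 7 of the Plpp3 sites over 163.4 kb (chromosome 4, 105299401 to 105462800), 136.4 kb of it acetylated. The next held 5 sites over 119.4 kb in and beside Ghr, the growth hormone receptor (chromosome 15, 3395401 to 3514800), at 1.33 to 2.07 RPM per kb. Among the 8 clusters of 4 sites, the most acetylated lay in and beside Sox6, which encodes a repressor of slow fibre genes (67.6 kb acetylated on chromosome 7, 1.03 to 2.69 RPM per kb). Next came those in Ltbp1, a binding protein of latent TGF-beta (58.8 kb on chromosome 17), and in Hibadh (52.6 kb on chromosome 6 from end to end). Clusters of 4 also lay in and beside Ntn4, which encodes a netrin of basement membranes, and in Esrrg, the gene of estrogen-related receptor gamma, which drives oxidative genes.

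Genes of muscle were nearest to a site more often than protein-coding genes at large, of which 6.09% (1219 of 20021) were. Of 35 transcription regulators of muscle, 15 had at least 1 site: Sox6 had 5, Eya4, Foxo1 (a factor of atrophy and fasting) and Maf (of the family that drives fast fibre genes) had 4 each, and Vgll2 (a TEAD co-factor) had 3. Of 27 genes of the neuromuscular junction and sarcolemma, 9 had a site, with 3 for Utrn (utrophin) and 2 each for Colq, Musk, Popdc3 and Sgcd. Of 49 sarcomere and Z-disc genes, 10 had a site, with 3 each for Ttn (titin) and Pdlim5 and 2 each for Mybpc1 and Myl1. Of 32 genes of muscle energy metabolism, 7 had a site, with 7 sites for Irs1 (the docking protein of the insulin receptor), 3 for Ppp1r3a (the muscle glycogen-targeting subunit of protein phosphatase 1) and 2 for Hk2 (hexokinase 2). Of 23 calcium handling genes 4 had a site (2 each for Cacna2d1, Jph1 and Trdn, 1 for Casq2), and of 20 genes of growth and atrophy 5 had 1 site each (Bmp4, Fbxo30, Fbxo40, Gadd45a and Mstn). Set against all consensus sites, meaning the 34154 merged regions called in at least 3 gastrocnemius libraries, the sites made up 5.47% of the total and 23.4% of those nearest the energy list, 15 of the 75 nearest the junction list, 16.7% of those nearest the sarcomere list, 15.1% of those nearest the regulator list and 11.5% of those nearest the calcium list. For growth and atrophy the share, 6.76%, was near that of all sites. A region that holds a TSS was left out by the rule, so promoters and gene-wide domains that begin at one do not enter these counts. The lists were drawn up with earlier results of these data known, and no test was run on them.

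Genes that mark other cells of the tissue had sites as well. Of 11 endothelial genes, 5 had a site, including Kdr (the VEGF receptor) with 4 and Tek (the angiopoietin receptor) with 3. Fibroblast genes had a site at 2 of 8 (2 for Col1a2, 1 for Dpt), smooth muscle and pericyte genes at 2 of 7 (Acta2 and Myh11) and adipocyte genes at 1 of 8 (Pparg, with 2 sites). None of 9 macrophage and immune genes, 7 Schwann cell genes or 20 neuronal genes had one, while 1 of 10 astrocyte and oligodendrocyte genes (Slc1a3, a glutamate transporter) and 1 of 12 housekeeping genes (Ywhaz) did. The immune, Schwann cell and neuronal lists had only 11, 16 and 16 consensus sites nearest them, so a count of 0 is close to what the 5.47% over all sites gives. Of consensus sites nearest the endothelial list 17.9% were among the 1868, against 14.3% for smooth muscle, 2 of 20 for adipocytes and 8.57% for fibroblasts. As a check of the tissue labels, H3K4me3 lay within 1 kb of a TSS of 44 of the 49 sarcomere genes in all 10 gastrocnemius libraries and of 13 in all 9 cortex libraries. The reverse held for the 20 neuronal genes, of which 20 had H3K4me3 in all 9 cortex libraries and 7 in all 10 gastrocnemius libraries.

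**Figure D2:**
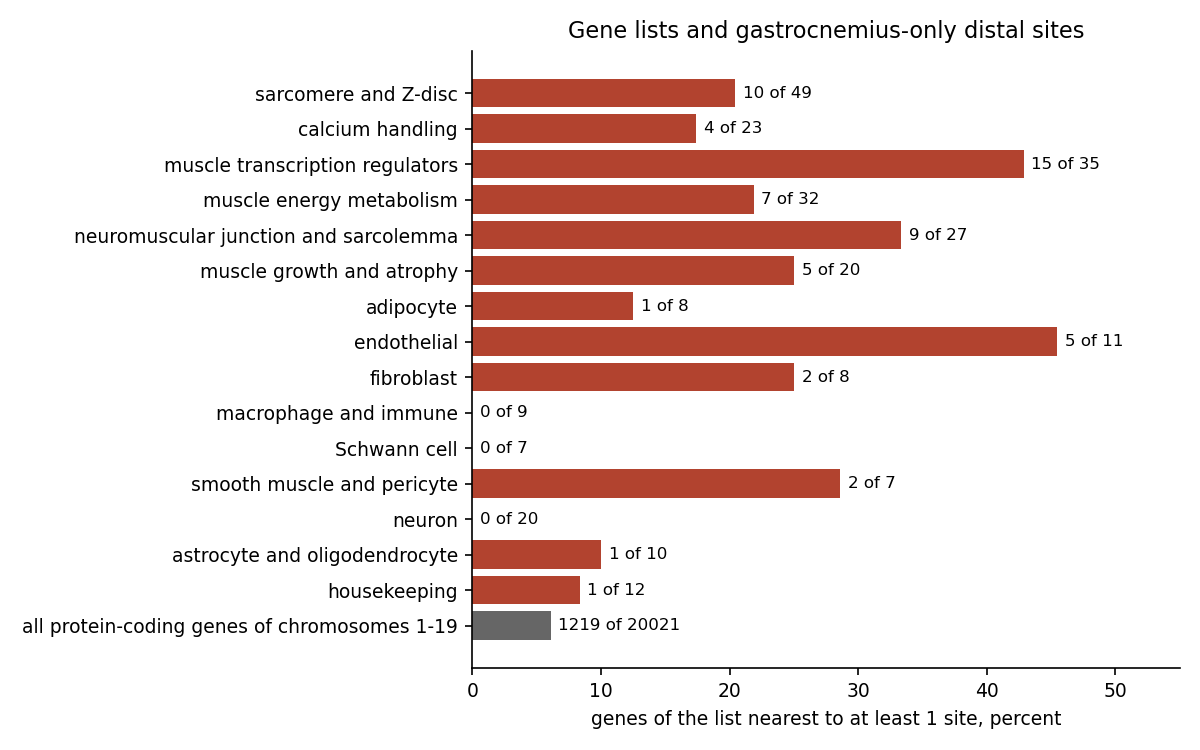
Share of the genes of each list (x axis, percent) that are the nearest protein-coding gene of at least 1 gastrocnemius-only distal site, with the counts beside each bar; the grey bar is all protein-coding genes of chromosomes 1 to 19. Muscle regulators (15 of 35) and endothelial genes (5 of 11) stand highest, and the neuronal, Schwann cell and immune lists have 0.

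In cortex, where these sites lack H3K27ac, a large minority carried H3K27me3. Peaks of H3K27me3 overlapped 35.3% ± 3.48 of the sites in cortex (SD, n = 9, range 29.3 to 40.4%) and 8.36% ± 2.31 in gastrocnemius (SD, n = 10, range 5.30 to 12.7%). The difference of 26.9 percentage points was larger than the spread, and the libraries of the tissues did not overlap (exact two-sided permutation p = 1.08e-05, the smallest that 92378 relabellings can give; adjusted p = 2.71e-05 over 10 tests of shares). That test leaves out that 9 mice gave both tissues. Paired by mouse, the difference was 27.4 points (exact sign-flip permutation p = 0.00391). Within the libraries whose deposited names carry no sequencing run number, the means were 34.8% in 7 cortex and 6.90% in 6 gastrocnemius libraries, and within those that carry one 37.0% in 2 and 10.6% in 4. Where peaks had to cover at least 50% of a site the difference was 17.9 points. Over all 34154 consensus sites the shares were 25.3% ± 1.73 in cortex and 21.0% ± 3.52 in gastrocnemius.

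Shared sites did not show that pattern. H3K27me3 overlapped 16.02% ± 1.36 of them in cortex and 16.9% ± 2.55 in gastrocnemius. Within each cortex library the gastrocnemius-only sites exceeded the shared sites by 19.3 ± 2.69 points (9 of 9 libraries, exact sign-flip permutation p = 0.00391, adjusted p = 0.00391, the smallest that 9 libraries can give). Within each gastrocnemius library they had less than the shared sites, with a mean difference of -8.52 points (10 of 10 libraries, exact permutation p = 0.00195, adjusted p = 0.00217). Where peaks had to cover at least 50% of a site it was -4.00 points. This gap between site classes differed between the tissues by 27.8 points (exact permutation p = 1.08e-05, adjusted p = 2.71e-05). Shared sites were wider, and for sites of 5 to 10 kb only, an alternative chosen after seeing the data, the gap was 31.8 points. The mirrored class differed in degree: cortex-only sites carried H3K27me3 at 50.3% ± 6.95 in gastrocnemius, 15.0 points more than the gastrocnemius-only sites carried in cortex (exact permutation p = 3.25e-05, adjusted p = 5.41e-05). Libraries of 2 tissues with different numbers of peaks enter this last comparison. With equally many peaks in every library it was 17.3 points.

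**Figure D3:**
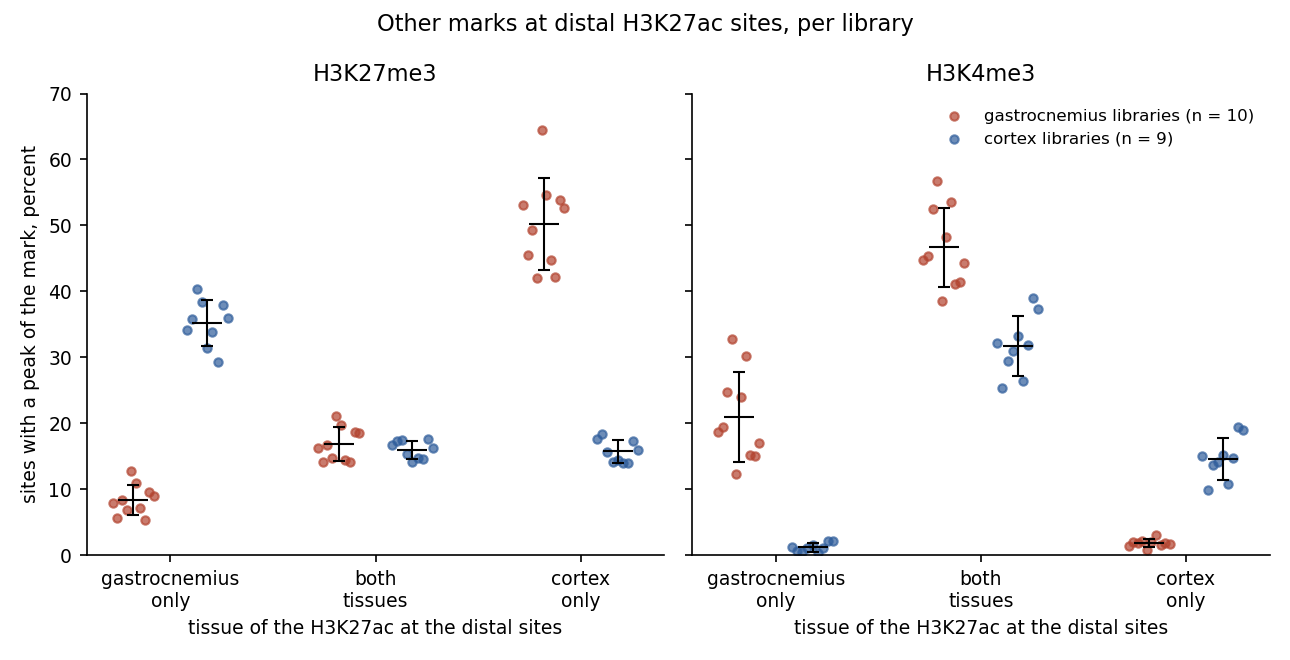
Share of distal sites with a peak of H3K27me3 (left) or H3K4me3 (right), in percent (y axis), for sites with H3K27ac in gastrocnemius only, in both tissues or in cortex only (x axis); points are libraries, bars the mean ± SD. H3K27me3 at gastrocnemius-only sites is at 29.3 to 40.4% in cortex and 5.30 to 12.7% in gastrocnemius, and the shared sites show no such split.

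Most sites had H3K27me3 either in every cortex library or in none. It was called in all 9 cortex libraries at 316 sites (16.9%) and in none at 855 (45.8%), with 68 to 125 sites at each number in between. Among shared sites these shares were 7.46% and 72.2%. In gastrocnemius 1507 sites (80.7%) had none in any library and 36 had it in all 10. Site by site, Fisher's exact test over all consensus sites (Benjamini-Hochberg FDR below 0.1) called 475 of the 1868 sites (25.4%) as marked in more cortex libraries, against 9.12% of all sites tested and 10.4% of those with H3K27ac in every gastrocnemius library. It called 3 sites (0.161%) in the other direction, against 4.81% of all sites tested. Among shared sites the counts were 231 (5.42%) and 239 (5.61%). At 145 sites (7.76%) every cortex and no gastrocnemius library had H3K27me3, against 2.25% of all sites tested, and at 0 sites the reverse held. The 475 became 234 (12.53% against 4.31% of all sites) where a peak had to cover the middle of the site, 227 (12.2% against 4.15%) where peaks had to cover at least 50% of it and 288 (15.4% against 5.92%) in libraries without a run number. The test takes the libraries as independent, although 9 mice gave both tissues.

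The highest sites called in cortex were those nearest Pkdcc, Rreb1, Eepd1, Nr2f2 and Unc93a2. At the Nr2f2 site (chromosome 7, 70622201 to 70627400) all 9 cortex and 0 of 10 gastrocnemius libraries had H3K27me3 (Fisher's exact test, adjusted p = 0.000323), and the promoter of Nr2f2 itself, 258 kb away, had it in every library of both tissues. The Pkdcc, Rreb1 and Unc93a2 sites had it in 6 cortex and 0 gastrocnemius libraries (adjusted p = 0.0283 each) and the Eepd1 site in 5 and 0 (adjusted p = 0.0778). At the Pkdcc promoter it was called in no library, and H3K4me3 was called there in all 19. The 3 sites called in more gastrocnemius libraries were nearest Fam114a2 (9 gastrocnemius and 2 cortex libraries, adjusted p = 0.0473), Pik3c3, a class III phosphoinositide kinase (7 and 0, adjusted p = 0.0283), and Dlc1 (6 and 0, adjusted p = 0.0778), the last in intron 5 of that gene. They were named because they were so few, after their values were seen.

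Counted by nearest gene, the number of sites called for H3K27me3 in cortex ranged from 0 to all, and no test of the spread over genes was run. Of 12 Plpp3 sites 9 were called, 6 of the 7 in its large cluster among them, and its promoter had H3K4me3 in all 19 libraries and H3K27me3 in none. Of the sites nearest Hlx (a homeobox gene) 6 of 7 were called, and of those nearest Palld 5 of 9. All 6 sites nearest Zfp521, a zinc finger regulator named after its values were seen, were called. Of the other genes with many sites, 0 of 10 sites nearest Klf6, 0 of 8 nearest Zfp462 and 0 of 8 nearest Adamts9 were. In between lay Trib2 with 2 of 8, Lrmda with 2 of 7, Hibadh with 3 of 8, Irs1 with 3 of 7, and Mgmt and Ets1 with 4 of 7 each. In the Ghr cluster H3K27me3 was called at 0 of 5 sites in every cortex library, whereas each of the 4 sites of the Ltbp1 cluster had it in 8 or 9 cortex libraries, 3 of them called. Of the sites nearest listed genes, 12 of 33 were called for muscle transcription regulators (4 of the 5 Sox6 sites, 3 of the 4 Maf sites, 0 of the 4 Foxo1 sites), 6 of 18 for energy metabolism (3 of 7 for Irs1, both for Hk2), 5 of 16 for the sarcomere, 3 of 15 for the junction and sarcolemma, 2 of 5 for growth and atrophy, 1 of 7 for calcium handling and 2 of 10 for endothelial genes. These shares lie on both sides of the 25.4% of all 1868 sites, at small numbers.

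**Figure D4:**
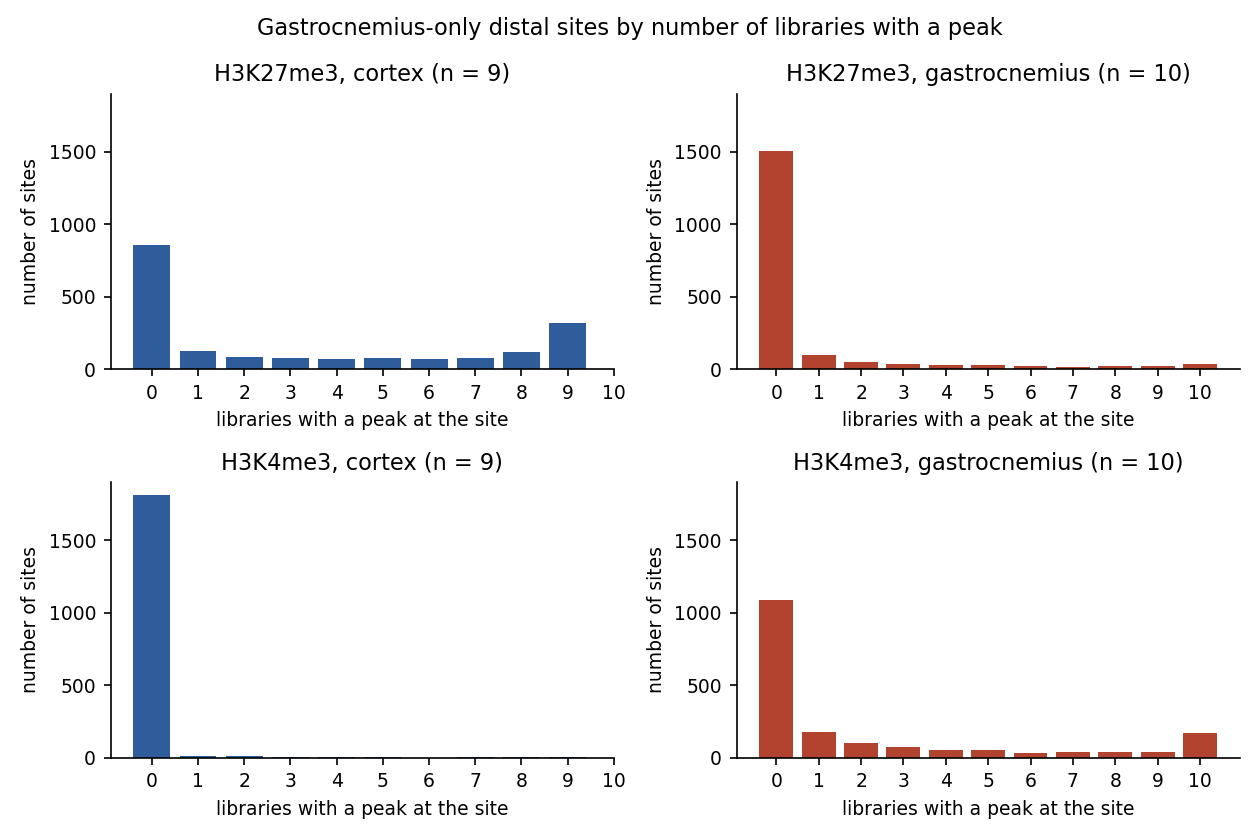
Number of gastrocnemius-only distal sites (y axis) by the number of libraries with a peak of H3K27me3 or H3K4me3 at the site (x axis), in cortex (blue, 9 libraries) and gastrocnemius (red, 10 libraries). H3K27me3 in cortex piles up at 0 libraries (855 sites) and at all 9 (316 sites), and H3K4me3 in cortex is at 0 for 1811 sites.

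Sites marked in cortex and sites unmarked there differed in place and in the promoter they lie nearest to. In a cortex library, an H3K27me3 peak covered a median of 63.8% ± 7.37 of a marked site (SD, n = 9), and covered it whole at 4.74 to 16.99% of marked sites. The widest such peak had a median of 4.4 to 7.4 kb, against 3.4 to 5.6 kb for all H3K27me3 peaks of the library. Of the marked sites, 51.7% ± 1.30 (SD, n = 9) lay nearest a gene whose promoter, within 1 kb of a TSS, was marked in the same library, against 22.3% ± 1.21 of the unmarked sites. The 316 sites marked in all cortex libraries were 26.9% intronic with a median GC content of 47.5% in the 500 bp at the core, and the 855 sites marked in none were 51.1% intronic with 42.4% GC. The first group was also wider (median 9.2 against 6.8 kb), which gives a peak more room to overlap it, and lay nearer a TSS (33.5 against 44.6 kb). The part of width in these contrasts was not tested. At 97 of the 316 (30.7%) the nearest promoter had H3K27me3 in no cortex library. H3K27ac in gastrocnemius stood at a median of 1.26 RPM per kb at the first group and 1.30 at the second.

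In gastrocnemius, H3K4me3 was present at a minority of the sites, and in cortex it was nearly absent. H3K4me3 peaks overlapped 20.9% ± 6.81 of the sites in gastrocnemius (SD, n = 10, range 12.3 to 32.8%) and 1.22% ± 0.653 in cortex (SD, n = 9, range 0.428 to 2.19%). The difference was 19.7 points (exact two-sided permutation p = 1.08e-05, adjusted p = 2.71e-05). Libraries without a run number gave 23.5% and 0.948%, and those with one 17.1% and 2.17%. The size depended on how many and which peaks were counted. With other choices, it was 8.86 points with equally many peaks in every library, 9.64 points without the lowest-scoring 25% of peaks, 9.66 points where a peak had to cover the middle of the site and 1.68 points where peaks had to cover at least 50% of it. The gastrocnemius libraries with the lowest and highest shares (5 and 4) were also those with the fewest and most autosomal H3K4me3 peaks, 20776 and 29155.

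Compared with shared distal sites the gastrocnemius-only sites were poor in H3K4me3. In gastrocnemius 46.7% ± 5.97 of shared sites had H3K4me3, and the within-library difference was -25.7 ± 1.44 points (lower in 10 of 10 libraries, exact permutation p = 0.00195, adjusted p = 0.00217). It was -7.58 points where a peak had to cover the middle of the site and -2.83 where peaks had to cover at least 50%. In cortex the same difference was -30.5 ± 3.89 points. The difference between the tissues, 4.81 points (exact permutation p = 0.00131, adjusted p = 0.00187), was not stable: it was 2.08 points with equally many peaks in every library, 0.119 points with at least 50% of a site covered (exact permutation p = 0.556) and -4.15 points, the opposite direction, without the lowest-scoring 25% of peaks.

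Sites with more H3K27ac more often had H3K4me3. It was called in a mean of 9.27% of the gastrocnemius libraries at the 467 sites with the least H3K27ac, and of 14.5%, 23.2% and 36.8% in the following groups of 467 up to the highest. H3K27me3 in cortex had no such order, at 38.4%, 34.5%, 32.7% and 35.5% of the cortex libraries. By Fisher's exact test 267 of the 1868 sites (14.3%) had H3K4me3 in more gastrocnemius libraries, against 5.67% of all sites tested, 8.53% of those with H3K27ac in every gastrocnemius library and 12.53% of shared sites. Where peaks had to cover at least 50% of a site, 7 sites (0.375%) were called against 0.884% of all, so the excess did not hold. In the other direction 0 sites were called, and 0 had an unadjusted p below 0.05, against 1.07% of all sites tested that were called. At 127 sites (6.80%) every gastrocnemius and no cortex library had H3K4me3, against 2.17% of all sites tested. Neither mark was called in any library at 557 sites (29.8%).

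The 5 highest sites called for H3K4me3 were those nearest Rreb1, Eepd1, Nr2f2, Unc93a2 and Myom1. At the Rreb1, Eepd1 and Unc93a2 sites, 10 gastrocnemius and 0 cortex libraries had it (Fisher's exact test, adjusted p = 0.000424), at the Nr2f2 site 10 and 2 (adjusted p = 0.0140) and at the site in Myom1 7 and 0 (adjusted p = 0.0472). Not every strong site had it: the Smim20 and Kcnma1 sites had H3K4me3 in no library and the Pkdcc site in 1. Annotated starts outside the curated transcripts lay in 374 of the sites (278 with a GENCODE vM21 start, 155 with a predicted RefSeq start). H3K4me3 was called at 27.8% ± 6.73 of these and at 19.2% ± 6.85 of the other 1494, higher at the former in 10 of 10 libraries. The former were also wider (median 9.2 against 7.0 kb), which gives a peak more room to overlap them. This split was made after seeing the data, and neither it nor the part of width in it was tested.

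The nearest genes mostly had promoters with H3K4me3 in both tissues. Of the 1219 nearest protein-coding genes, 970 (79.6%) had H3K4me3 within 1 kb of a TSS in every library of both tissues, against 61.8% of all 20021 genes. In gastrocnemius 85.7% ± 0.328 of the 1219 had it (SD, n = 10) and in cortex 83.1% ± 0.910 (n = 9), a difference of 2.53 points (exact two-sided permutation p = 1.08e-05, adjusted p = 2.71e-05). Without the lowest-scoring 25% of peaks the difference was 4.33 points. Over all genes the shares were 66.9% ± 0.544 in gastrocnemius and 68.3% ± 0.715 in cortex. H3K4me3 in every gastrocnemius and no cortex library was found at 30 of the 1219 promoters (2.46%), against 1.04% of all. Among the listed genes, Myom1, Myom2, Ttn, Myl1, Mybpc1, Trdn, Musk, Cav3, Ppp1r3a, Fbxo40 and the fibroblast gene Dpt had that pattern. H3K27me3 lay at 31.0% ± 1.38 of the nearest promoters in cortex and 23.0% ± 2.999 in gastrocnemius, 8.05 points apart (exact permutation p = 2.17e-05, adjusted p = 4.33e-05). Over all genes the shares were 23.2% in cortex and 24.96% in gastrocnemius, the opposite order. In all cortex and no gastrocnemius libraries it lay at 33 of the 1219 (2.71%), against 0.904% of all. The reverse pattern was found at 10 of the 1219 (0.820%), against 1.51% of all. The tissue difference in H3K27me3 was larger at the distal sites (26.9 points) than at the promoters of their nearest genes, but the measures are unlike. A site counted at any overlap over its whole width and a promoter within 1 kb of a TSS. Only the sites were chosen by H3K27ac in the tissues. The comparison of these differences itself was not tested.

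The cores had a lower GC content than those of the other classes. In the 500 bp at the core the median GC content was 44.6% (quartiles 41.0 and 47.8%), against 48.6% for shared, 47.2% for cortex-only and 47.8% for all consensus sites, and 3 of 1868 windows were over 60% GC. Consensus sites include promoters, which the rule removes, and 9.51% of their windows were over 60% GC, against 3.50% of shared and 1.08% of cortex-only distal windows. Matches on either strand to the Sp site (GGGCGG) were found in 5.57% of the windows, against 18.04% of consensus, 14.4% of shared and 9.04% of cortex-only windows. The ETS site (CCGGAAGT) was matched in 0.428%, against 1.36% of consensus windows but 0.458% of cortex-only windows. Among motifs of muscle factors, the MEF2 site was matched in 11.6% of the windows, against 8.32% of consensus, 8.28% of shared and 8.25% of cortex-only windows. The TEAD site was matched in 27.5% against 24.8% of consensus windows, and in 27.6% of cortex-only windows. The MyoD-type E-box showed no excess, with 28.1% against 29.1% of consensus and 29.8% of cortex-only windows. The E-box form common at neuronal enhancers (CAGATG) was matched in 35.7% against 41.2% of cortex-only windows, and the form CAGGTG in 25.2% against 29.9%. The CArG box stood at 3.48% against 2.40% of consensus and 2.49% of cortex-only windows, but in 200 bp windows at 1.02% against 0.925% and 1.08%. The AP-1 site (TGANTCA) stood at 18.95% against 15.2% of consensus and 17.6% of cortex-only windows. The steroid receptor site (ACANNNTGT) stood at 19.2% against 14.9% and 17.4%, and the ERR site at 1.39% against 1.29% and 0.982%. The KLF site (CCACACCC), the cAMP response element (TGACGTCA) and the NFI site were matched in 4.07%, 0.214% and 0.0535% of the windows, against 4.62%, 0.744% and 0.0468% of consensus windows. Motifs rich in A and T are met more often by composition where GC is low, and this was not separated here. A match is a run of letters and not a bound site, and shares are descriptions without a test.

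**Figure D5:**
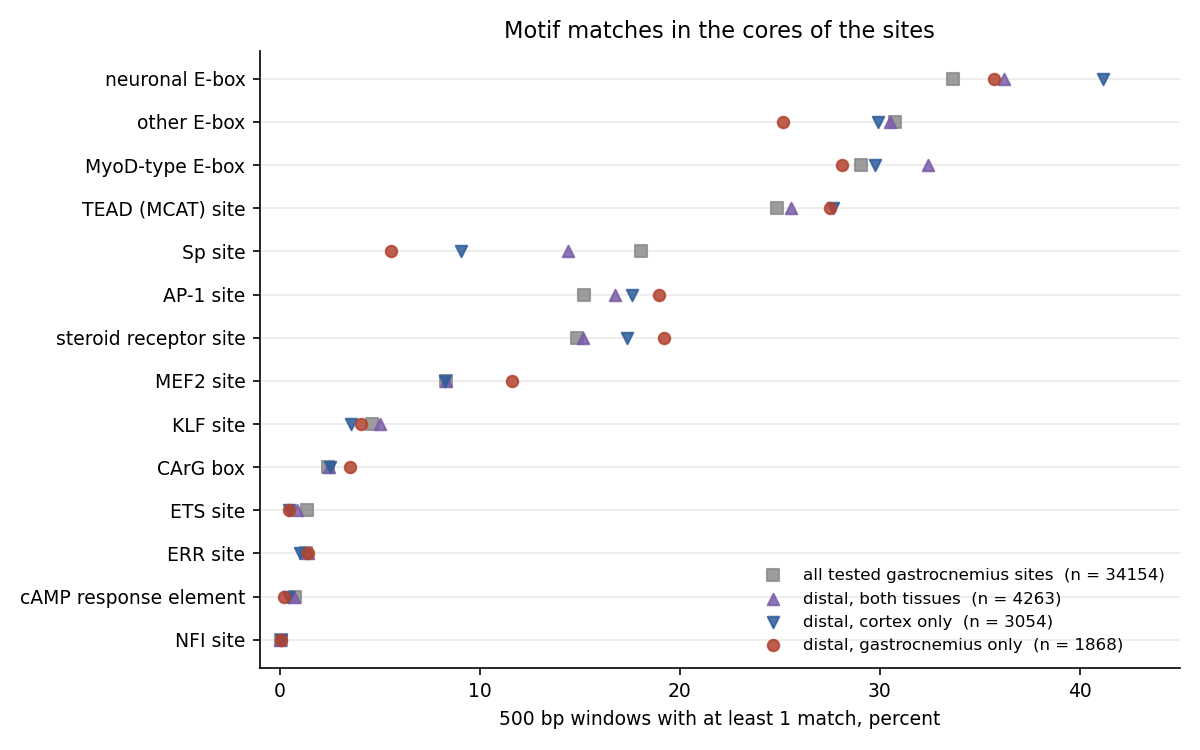
Share of 500 bp windows at the core of the sites with at least 1 match to each motif on either strand (x axis, percent), for gastrocnemius-only distal sites, shared and cortex-only distal sites and all 34154 consensus sites. The match to the loose MEF2 letters (11.6% against 8.32%) and the Sp match (5.57% against 18.04%) stand apart from the other classes in opposite directions.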

How the data were processed

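Chromatin of cortex (9 mice) and gastrocnemius (10 mice) was immunoprecipitated for H3K4me3, H3K27ac and H3K27me3 and sequenced as 51 bp read pairs. The authors mapped the pairs with bwa to mm10, filtered them by mapping quality, duplication and chromosome in SAMtools, and ran epic2 on each library (windows and fragments of 200 bp; gaps of 3 windows for H3K27me3 and of 2 for the other marks; FDR 0.05; e-value 100). Which epic2 release was used is not given in the sources used. The deposited peaks carry a count of reads per peak and an epic2 score. The score was used here only to leave out the lowest-scoring 25% of peaks as an alternative.

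Peaks of the 10 gastrocnemius H3K27ac libraries on chromosomes 1 to 19 were merged, counts were shared out over a site in proportion to overlap, and levels were scaled to reads in autosomal peaks. Depth sets which peaks could be called, so an absent peak is one not detected at that depth. Each mark was scored as present where any peak overlapped a site by at least 1 bp. Shares were compared by exact two-sided permutation tests over libraries (tissues) or sign flips within libraries (site classes), and adjusted over 10 tests by Benjamini-Hochberg. Single sites were tested by Fisher's exact test over all 34154 consensus sites, at an FDR of 0.1. On simulated data, 155 (H3K4me3) and 147 (H3K27me3) of 200 changed sites were recovered over those 34154. The animal codes in the deposited names pair 9 cortex libraries with gastrocnemius libraries of the same mouse. Sites were annotated with RefSeq for mm10, and the nearest gene is the protein-coding gene with the closest TSS.

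The sites, gene lists, motifs and tests were chosen with earlier results of these data known. Named sites were the 10 with the highest H3K27ac, the 3 least and 3 most variable of at least median level, and the 5 highest called for each mark. The sites whose cores are printed were named as well. So were the 3 sites called for H3K27me3 in more gastrocnemius libraries, after their values were seen. Named genes were those with the most sites and the listed genes. Alternatives moved the distance, overlap, score, library and motif window (500 or 200 bp) choices. Python 3.11.15, NumPy 2.4.6, SciPy 1.17.1, pandas 2.3.3 and matplotlib 3.10.9 were used. Matches to 1 of the motifs searched are not reported here.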

Additional observations from a re-analysis of the deposited data

Results flagged for a closer look

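At 3 of the 34 groups of libraries examined for a far value by Dixon's test (10 shares or medians and 24 named sites), 1 library stood apart, and chance alone flags about 1 group in 20. At the site nearest Eepd1, gastrocnemius library 7 held 5.04 RPM per kb of H3K27ac and the next library 3.62. At the site nearest Kcnma1, the same library held 4.24 RPM per kb and the next 3.24. At the site nearest Dct, library 6 was the lowest, at 1.95 RPM per kb, and the next held 2.62.

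The gap in H3K27me3 between gastrocnemius-only and shared distal sites differed between the tissues by 27.8 percentage points, positive in every cortex and negative in every gastrocnemius library. The gap in H3K4me3 differed by 4.81 points, and its direction depended on which peaks were counted.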

How the results depend on the processing

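The 10 tests of shares were recomputed 89 times under alternatives other than leaving out a library, and 87 kept their direction and side of the threshold. The tissue difference in the H3K4me3 gap was 0.119 points where peaks had to cover 50% of a site (exact permutation p = 0.556) and -4.15 points, reversed, without the lowest-scoring 25% of peaks. Per-site H3K4me3 calls (267, 14.3% against 5.67% of all sites tested) became 114 where a peak had to cover the middle of the site (6.10% against 3.50%), 7 with 50% covered (0.375% against 0.884%, so the excess over all sites turned around), 129 without the lowest-scoring 25% of peaks (6.91% against 4.15%) and 134 with equally many peaks in every library (7.17% against 3.38%). Per-site H3K27me3 calls (475, 25.4% against 9.12%) became 234 (middle, 12.53% against 4.31%), 227 (50% covered, 12.2% against 4.15%) and 288 in libraries without a run number (15.4% against 5.92%). Without the lowest-scoring 25% of gastrocnemius H3K27ac peaks 1099 sites met the rule. As a separate alternative, the median level of the 1868 sites per kb covered by a peak was 2.14 RPM per kb. The stricter overlap, score and library choices leave fewer peaks or libraries by construction, and the cause of the reversal was not tested.

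With the animal as a replicate block (9 pairs from the same mice), the H3K27me3 difference was 27.4 points and the H3K4me3 difference 20.7. Exact sign flips gave p = 0.00391, the smallest that 9 pairs can give, and adjusted p = 0.00456 for each. None of the 7 tests of shares between tissues changed its call. Single sites were not tested with the block. Leaving out each library in turn changed the call of no test of shares, and the per-site calls ran from 387 to 449 for H3K27me3 and from 222 to 270 for H3K4me3. Restricting the sites to 5 to 10 kb, and leaving H3K27ac cortex library 9 out of the rule or of the comparison sites, were alternatives chosen after seeing the data. In 200 bp in place of 500 bp windows, the share with a match relative to all sites moved beyond its counting interval for the CArG box (1.45 to 1.10), the steroid receptor site (1.29 to 1.17), the Sp site (0.309 to 0.243) and the NFI site, which then had no match.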
